A study of Mus musculus with 24 samples.

Results

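H2-Aa, H2-Ab1, H2-Eb1 and Cd74, the 4 genes described here, were taken by name from the 54235 features of single-cell RNA libraries of the mouse motor cortex and dorsal striatum. They were chosen because of the number of cells that carried them in each library, together with the question of whether those cells were microglia, known by P2ry12 and Tmem119, or macrophages, known by Mrc1 and Pf4. Both properties are therefore given as descriptions, without a test. A UMI is a molecular tag that marks 1 captured RNA molecule, and a carrier is a cell with at least 1 UMI of any of the 4 genes. Of 98612 cells kept, 4134 were carriers (4.19%), and 64 cells held 10 or more summed UMIs.

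Class II molecules are heterodimers that display peptides from engulfed material to CD4+ T cells. H2-Aa and H2-Ab1 encode the alpha and beta chains of the mouse class II molecule I-A, H2-Eb1 encodes the beta chain of I-E, and Cd74 encodes the invariant chain, which occupies the peptide groove and guides the complex to endosomes. Dendritic cells, B cells and activated macrophages are the main bearers of these molecules. Microglia of the healthy adult brain carry little, and some macrophages at brain borders carry more.

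The cells came from 12 pools of 2 mice each, 2 pools for every combination of region and stage. Motor cortex was taken from Fos-CreER::Ai9 mice and dorsal striatum from Arc-CreER::Ai9 mice, 2 driver lines that let 4-hydroxytamoxifen (4-OHT) label recently active cells with a red reporter, so region and line cannot be told apart. All mice, controls included, received 4-OHT and were sampled 3 days after labelling. Early pools had trained for 2 days and late pools for 8 days on a forelimb reaching task, and control pools were not trained. Each pool gave a library per hemisphere, named contralateral and ipsilateral in trained pools and left and right in controls. The age of the mice is not given in the sources used here. Libraries are named here by stage, side and the replicate number of their pool, which follows the order of the records.

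The 23 libraries analysed held 5260446 to 30470621 UMIs and 467 to 6606 kept cells. Pool 1 of the striatal controls rests on its left hemisphere, since the right one was not analysed here, and the left library of motor cortex control pool 1 held the 467 cells. The 10x kit version is not given per library. Shared cell barcodes split the libraries into 2 sets (2226 barcodes shared over the library pairs of the first, which holds late pool 1 and control pool 1 of each region, 715 within the second and 112 between them). This split is called the kit class below, and it was used as a covariate.

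On chromosome 17 of GRCm38, H2-Ab1 lies at 34257689 to 34269419 on the plus strand, H2-Aa at 34282744 to 34287823 on the minus strand and H2-Eb1 at 34305867 to 34316674 on the plus strand. H2-Eb1 overlaps the antisense gene Gm20513. Whether the authors' counting used strand is not given in the sources used here, so low H2-Eb1 counts are uncertain. Cd74 (ENSMUSG00000024610) is on another chromosome.

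The promoters of H2-Aa and H2-Eb1, shown because both genes are raised together in the same few cells described below, were read from RefSeq's promoter table for GRCm38.p6. The table held entries for these 2 of the 4 genes. Each line gives 150 bases upstream of the start, 5′ to 3′ on the gene's strand, at chr17:34287824-34287973 for H2-Aa (minus strand) and chr17:34305717-34305866 for H2-Eb1 (plus strand). Capitals mark GCAACT, letters found in the X box where the RFX complex binds, and CTGATTGG, letters of the Y box where NF-Y binds. RFX and NF-Y are the DNA-binding platforms for the class II activator Ciita.
H2-Aa: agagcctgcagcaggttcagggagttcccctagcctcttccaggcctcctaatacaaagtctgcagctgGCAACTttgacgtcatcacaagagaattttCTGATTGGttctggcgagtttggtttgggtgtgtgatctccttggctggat
H2-Eb1: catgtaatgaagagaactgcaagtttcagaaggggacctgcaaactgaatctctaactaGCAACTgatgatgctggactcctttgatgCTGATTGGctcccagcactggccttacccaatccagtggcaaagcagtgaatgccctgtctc
The first motif began 81 bases before the start in H2-Aa and 91 in H2-Eb1. The second began 51 and 62 bases before it, with 24 and 23 bases between the motifs. Both motifs were chosen after the sequences had been read. Searched on both strands, GCAACT was present in 5.34% of 27025 promoters, CTGATTGG in 3.40% and both in 0.148%. A match is a description of letters, not of a bound site.

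Cd74 made up most of what was detected. It was found in 3516 cells, against 454 for H2-Ab1, 364 for H2-Eb1 and 106 for H2-Aa, and 3324 carriers had Cd74 as their only member. Most of these detections were shallow, because 68.1% of Cd74 cells, 85.9% of H2-Ab1 cells, 83.5% of H2-Eb1 cells and 53 of the 106 H2-Aa cells had 1 UMI of the gene. The total was 7495 UMIs for Cd74, 1165 for H2-Ab1, 1158 for H2-Eb1 and 873 for H2-Aa.

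The 64 cells with 10 or more summed UMIs held a large part of these totals. They contained 93.7% of all H2-Aa UMIs, 71.8% of H2-Eb1 UMIs, 63.8% of H2-Ab1 UMIs and 30.1% of Cd74 UMIs. All 4 genes were present in 49 of the 64 cells, and 8 held Cd74 alone. The highest cell, in the ipsilateral library of motor cortex early pool 1, had 89 UMIs of H2-Aa, 72 of H2-Ab1, 65 of H2-Eb1 and 229 of Cd74. The cells nearest the limit held 9 summed UMIs (3 cells) and 10 (2 cells), so the limit falls in a thin stretch of the distribution.

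**Figure D1:**
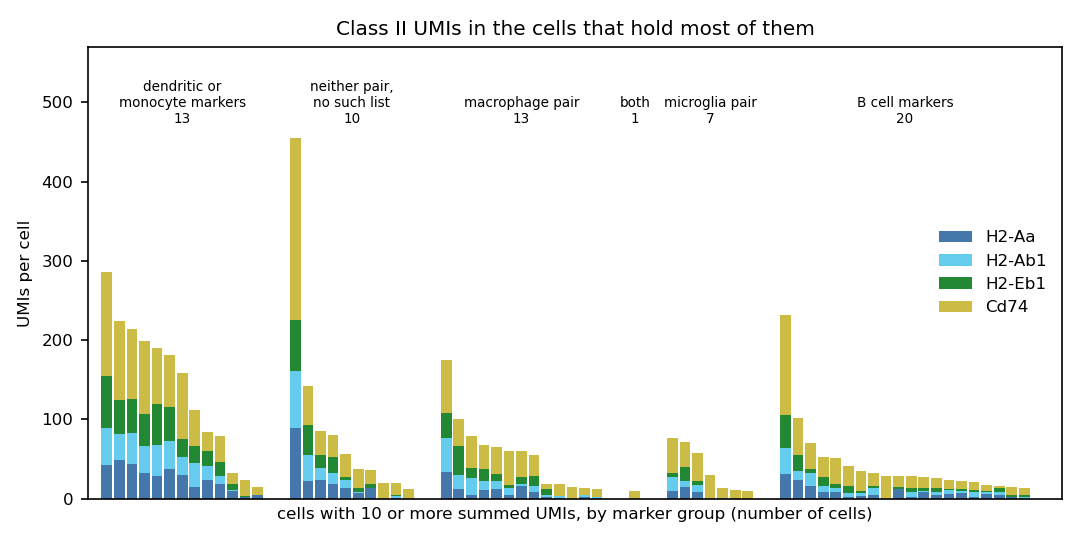
UMIs of H2-Aa, H2-Ab1, H2-Eb1 and Cd74 stacked per cell (vertical axis, linear) for the 64 cells with 10 or more summed UMIs, 1 bar a cell, grouped by markers and ordered by height. The highest cell, with 455 UMIs, belongs to the group with neither pair and no such list, the 13 cells with dendritic cell or monocyte markers reach 286, while the 7 cells with the microglia pair reach 77.

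Among all 4134 carriers, 64.4% were marked as microglia by at least 2 UMIs of P2ry12 and Tmem119 and fewer than 2 of Mrc1 and Pf4. A further 3.07% were marked as macrophages by the converse rule, 0.363% had both pairs and 32.2% had neither. In the 64 highest cells the order was different. Neither pair was present in 43 of them, the macrophage pair in 13, the microglia pair in 7 and both in 1. Thus most cells with a trace of these genes were microglia, and most cells with many UMIs were not marked as either type.

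Of the 43 cells with neither pair, 20 held at least 2 summed UMIs of the B cell markers Cd79a, Cd79b and Ms4a1. These were set apart first, and 8 of them also held at least 2 UMIs of the monocyte list and 3 of the dendritic cell list. Of the rest, 13 held at least 2 of the dendritic cell or monocyte lists, which include Flt3, Itgax, Cd209a, Ccr2, Ly6c2 and Plac8. The other 10 reached 2 UMIs in none of these sets. With Ighm added to the B cell markers, 2 of these 10 reached 2 UMIs, and 4 of the 10 held at least 2 UMIs of P2ry12, Tmem119, Cx3cr1, Siglech, Sall1 and Csf1r together. These groups were defined after the values had been seen. The dendritic or monocyte group had the highest summed level, a median of 158 UMIs per cell (range 15 to 286). The B cell group had a median of 28 (14 to 232), the macrophage-marked cells 60 (12 to 175) and the microglia-marked cells 30 (10 to 77). UMIs of the neutrophil list and of the T or NK cell list were at 0 in all 64 cells. Levels between stages and hemispheres are therefore also given below without the 64 cells where a result turns on them.

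The 64 cells were split evenly, 32 in each region, and every pool held between 1 and 10. Doublet calling bears on this count. Of 86 cells with 10 or more summed UMIs before doublets were removed, 22 (25.6%) were called doublets, against 4.92% of all cells, and whether these 22 were single cells was not tested.

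Carriers per library ranged from 30 to 683, or from 1.04% to 10.3% of kept cells. In the motor cortex the late ipsilateral library of pool 1 was highest, with 683 carriers of 6606 cells (Wilson 95% interval 9.63% to 11.1%), and the left control library of pool 1 held the 30 of 467. In the striatum the late ipsilateral library of pool 1 was lowest, with 59 of 5658 cells (0.808% to 1.34%), and the right control library of pool 2 was highest, with 185 of 3414 (4.71% to 6.23%). The late ipsilateral library of motor cortex pool 1 also had the most microglia-like cells, 2379, and the late ipsilateral library of striatal pool 1 the fewest in that region, 135. The number of carriers therefore has to be read per cell class. These intervals cover counting error only.

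Cells were placed in classes by clustering without the 4 genes. The microglia-like class (14406 cells, with P2ry12, Tmem119 and Cx3cr1 among its markers) had Cd74 in 21.6% of cells in the motor cortex and 20.1% in the striatum. Over the 6 motor cortex pools the share ran from 13.5% to 29.1%, and over the 6 striatal pools from 14.0% to 28.7%, and the ranges overlapped. The chain genes were far rarer there, with H2-Ab1 in 1.86% and 1.92% of cells, H2-Eb1 in 0.766% and 0.822% and H2-Aa in 0.248% and 0.253%, in the motor cortex and striatum respectively. The macrophage-like class (827 cells, led by Pf4, Mrc1 and Ms4a7) had Cd74 in 15.4% of cells in the motor cortex and 9.84% in the striatum. In this class H2-Aa was in 0.858% and 2.05% of cells, H2-Ab1 in 1.03% and 2.46% and H2-Eb1 in 1.20% and 1.23%. Each of these 6 shares rests on 3 to 7 cells. H2-Aa and H2-Eb1 were thus in a larger share of macrophage-like than of microglia-like cells in both regions, and H2-Ab1 in the striatum only. For H2-Eb1 this order rests on cells with 10 or more summed UMIs. Without such cells, both regions together, H2-Eb1 was in 0.490% of macrophage-like against 0.723% of microglia-like cells. H2-Ab1 was then in 0.490% against 1.81%. H2-Aa kept its order, 0.367% against 0.188%, with 3 macrophage-like cells. Neurons, which should lack these genes, had any of the 4 in 0.889% of cells in the motor cortex and 0.323% in the striatum. Their median depth was 5548 UMIs per cell, against 1817 in microglia-like and 2299 in macrophage-like cells. Gene by gene, neurons had H2-Eb1 in 0.342% and 0.215% of cells and H2-Aa in 0.0365% and 0.00828%.

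**Figure D2:**
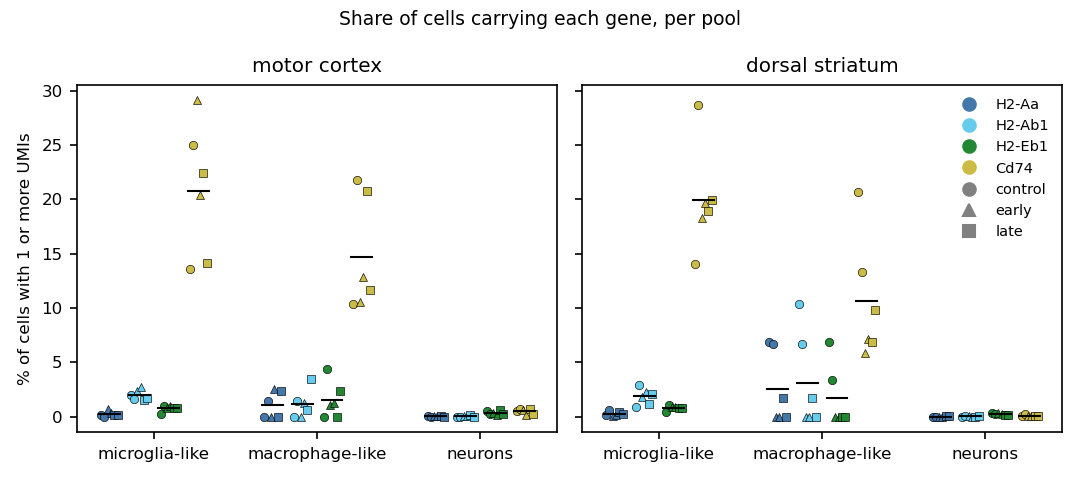
Percent of cells with 1 or more UMIs of each gene (vertical axis) in microglia-like cells, macrophage-like cells and neurons, 1 point a pool with its stage as the symbol and a bar at the mean of the 6 pools. Cd74 in microglia-like cells spans 13.5% to 29.1% in the motor cortex and 14.0% to 28.7% in the striatum, and stages overlap.

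Within the microglia-like class, Cd74 differed between clusters. Over cells of all pools it was present in 32.7% of cluster 1, which was led by Gdf15, Edn1 and Ccl5, and in 26.1% of cluster 7, led by the heat shock genes Hspa1b, Hspa1a and Hspb1. It was present in 7.40% of cluster 4, led by Egr1, Sgk1 and Txnip. Cluster 1 was above cluster 4 in 8 of 8 pools with at least 20 cells of each, by a median of 25.4 percentage points. With every cell thinned to 1000 UMIs the shares became 18.7% and 3.70%, so the order was the same at equal depth. Because clusters are made from the same cells' genes, this order is a description and no test was made. The order of clusters 1 and 4 covers those 8 pools only. Clusters 0 and 3 reached 20 cells in 4 pools, and none of these reached it for cluster 1 or 4. Cluster 0 was above cluster 3 in 2 of these 4 pools.

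Unnamed clusters held 10 striatal and 8 motor cortex cells of the 64, and the class named T or NK cell held 4 and 13. Of the 20 cells of the B cell group, 15 lay in that class. Endothelial cells held 3 of the 20, neuroblasts or progenitors 1 and spiny projection neurons 1. Apart from the 64, unnamed cells had Cd74 in 4.22% and H2-Ab1 in 1.72% of 3841 cells. Further classes held traces. Outside the 64 cells, mural cells had 38 UMIs of H2-Eb1 in 38 of 5087 cells beside 12 of H2-Ab1 and 3 of Cd74. Oligodendrocyte precursors had 39 UMIs of H2-Ab1, 20 of H2-Eb1 and 9 of Cd74 in 8115 cells. Glutamatergic neurons had 67 UMIs of H2-Eb1 and 100 of Cd74 in 17705 cells. None of 569 fibroblasts had a UMI of any of the 4 genes.

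The question of the study was how learning changes these regions, so levels were compared between stages in each region. For this, UMIs were summed per pool and class, levels are counts per 1000000 UMIs of the class (CPM), and edgeR's quasi-likelihood test was fitted over all genes with kit class as a covariate. In microglia-like cells none of the 4 genes passed an adjusted p of 0.05 in any of the 3 stage comparisons of either region. In the motor cortex this was against 0% of 9801 genes called in each of them, with 201 genes (early less control), 218 (late less control) and 187 (late less early) under an unadjusted p of 0.05. DESeq2 called none of the 4 genes in these comparisons. In the striatum it was against 0.0316%, 0.0105% and 0.0316% of 9490 genes.

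In microglia-like cells of the motor cortex, Cd74 was at 104 and 185 CPM in the control pools, 235 and 161 in the early pools and 183 and 114 in the late pools. The stages overlapped. H2-Aa stood at 0.733 and 0 CPM in the controls, 23.1 and 1.84 in the early pools and 6.47 and 1.04 in the late pools, which corresponds to 1, 0, 99, 4, 50 and 2 UMIs. Early pool 1 and late pool 1 were the high ones, and both held microglia-like cells with 10 or more summed UMIs. Of the 99 UMIs of early pool 1, 89 lay in 1 cell. Early against control, the fitted change of H2-Aa was 7.09 ± 1.75 (SE, adjusted p = 1). No control pool reached the level that the low-count filter asks for, so H2-Aa was tested only through trained pools. Without early pool 2 the early arm is the 1 high pool, and the changes of 7.83 (early against control) and -4.51 (late less early) are given without a test. The fitted early-against-control changes on the log2 scale were 1.47 ± 0.39 (SE, adjusted p = 1) for H2-Ab1, 1.78 ± 0.73 (adjusted p = 1) for H2-Eb1 and 0.53 ± 0.37 (adjusted p = 1) for Cd74. Late against control, the changes were 0.39 ± 0.36 for H2-Ab1, 1.14 ± 0.73 for H2-Eb1 and 0.10 ± 0.35 for Cd74 (adjusted p = 0.999 for each).

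In the striatum, Cd74 was at 186 and 225 CPM in microglia-like cells of the control pools, 142 and 169 in the early pools and 345 and 160 in the late pools. H2-Eb1 stood at 2.91 and 7.54 in the controls, 4.15 and 25.5 in the early pools and 37.5 and 3.80 in the late pools. In each trained stage 1 pool was high and the other lay within the controls. Late against control, the log2 changes were 1.55 ± 1.08 for H2-Aa, 0.69 ± 0.61 for H2-Ab1, 1.26 ± 0.88 for H2-Eb1 and 0.24 ± 0.29 for Cd74 (SE, adjusted p = 0.982 for each). A rise of H2-Aa and H2-Eb1 in this comparison was known from an earlier analysis of the same data, so the values with a pool left out are given without a test. Without control pool 2 the changes were 5.49 for H2-Aa and 3.70 for H2-Eb1, and the control arm was then pool 1 alone, of which 1 hemisphere was analysed. Without control pool 1 they were -2.23 and -0.90, and without late pool 1 they were -2.24 and -0.91, so the direction rests on single pools. Of the 29 H2-Aa and 24 H2-Eb1 UMIs of late pool 1, 2 cells held 29 and 22, and without the 64 cells H2-Eb1 stood at 3.14 CPM there, against 1.95 and 5.03 in the controls. Early against control, H2-Aa and H2-Eb1 changed by 1.15 ± 1.22 and 1.81 ± 0.88, and H2-Ab1 and Cd74 by 0.53 ± 0.60 and -0.30 ± 0.30 (adjusted p = 0.999 for each). Without control pool 2 the changes of H2-Aa and H2-Eb1 were 7.54 and 5.48, and without early pool 1 they were 2.24 and 2.69. Without early pool 2 they were -2.44 and -0.10, and without control pool 1 they were -0.18 and 0.88. In early pool 2, 1 cell held all 22 H2-Aa UMIs and 38 of 46 H2-Eb1 UMIs. These values too are given without a test, since control pool 1, the control left without pool 2, held 1 and 3 UMIs of the 2 genes.

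With all pools and the filter on low counts, members were called in microglia-like cells in the comparison of hemispheres and in none of the stage comparisons. A reaching forelimb is controlled mainly by the opposite hemisphere, and each trained pool supplied both sides from the same mice, so the pool was used as a block. In microglia-like cells of the motor cortex, H2-Aa, H2-Eb1 and H2-Ab1 were lower on the contralateral side, and in the striatum all 4 genes were. Of all genes tested, 0.0639% of 9395 were called in the motor cortex and 0.0520% of 7687 in the striatum. H2-Aa and H2-Eb1 reached the level asked for by the low-count filter in ipsilateral libraries only, so they had to be lower on the contralateral side to be tested, and the number of members called is not read as support. Cd74 reached it in every library. H2-Ab1 reached it in 3 of 4 contralateral and 4 of 4 ipsilateral libraries in the motor cortex, and in 1 and 3 of 4 in the striatum.

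H2-Aa in the motor cortex stood at 0.527 and 1.66 CPM in the contralateral libraries of early pools 1 and 2 and at 0 and 1.13 in those of late pools 1 and 2. The ipsilateral libraries, in the same order, stood at 41.0, 2.07, 10.6 and 0.964. The contralateral library was lower in 3 of 4 pools, with large gaps in pool 1 of either stage and values of similar size in pool 2. The counts were 4 contralateral against 151 ipsilateral UMIs. Scaled by all UMIs of the class on each side, the ipsilateral to contralateral ratio was 28.9, with a 95% interval of 11.1 to 107 that covers counting error only, while 89 of the 151 UMIs lay in 1 cell.

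H2-Eb1 in the motor cortex was lower on the contralateral side in 4 of 4 pools, from 2.00 to 4.14 CPM against 7.72 to 30.5, without overlap. Its log2 change was -2.72 ± 0.33 (SE). The p-value of that fit is not given, since only ipsilateral libraries reached the filter level. With no filter on low counts edgeR called H2-Eb1. DESeq2, which has no such filter, did not call it, so the unfiltered call is not read as support. In the ipsilateral library of early pool 1, 65 of the 73 H2-Eb1 UMIs lay in 1 cell. H2-Ab1 was also lower in 4 of 4 pools, by -1.78 ± 0.25 on the log2 scale (adjusted p = 0.000111). Cd74, the most abundant of the genes, was lower in 4 of 4 pools too, with a change of -0.34 ± 0.09 (adjusted p = 0.484).

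In the striatum, H2-Eb1 stood at 3.33 and 1.20 CPM in the contralateral libraries of early pools 1 and 2 and at 4.21 and 3.68 in those of late pools 1 and 2. The ipsilateral libraries stood at 5.17, 46.3, 133 and 3.92. Early pool 2 and late pool 1 made the gap, and the other 2 pools were nearly level. The log2 change of H2-Eb1 was -3.24 ± 0.47 (SE), and only ipsilateral libraries reached the filter level, so the p-value of that fit is not given. With no filter edgeR called H2-Eb1 and DESeq2 did not. The changes were -1.52 ± 0.34 for H2-Ab1 (adjusted p = 0.0461), which was lower in 3 of 4 pools, and -0.67 ± 0.13 for Cd74 (adjusted p = 0.00309), which was lower in 4 of 4 pools. H2-Aa had 1 contralateral UMI against 53 ipsilateral ones, of which 22 lay in early pool 2 and 29 in late pool 1. Scaled by all UMIs of the class on each side, the ratio was 61.4 with a 95% counting interval of 10.6 to 2471.

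These calls rest on a handful of cells. In trained motor cortex pools, 5 microglia-like cells with 10 or more summed UMIs lay on the ipsilateral side and 0 on the contralateral side, and in trained striatal pools 3 lay on the ipsilateral side and 1 on the contralateral side. Over all classes the 64 cells were not split in this way in trained pools, with 15 ipsilateral and 14 contralateral in the motor cortex and 8 and 11 in the striatum. Of the 13 such cells in the microglia-like class, 8 had neither marker pair, 1 had the macrophage pair and 4 had the microglia pair. Most lay in cluster 5, whose cells had a median of 1355 UMIs and whose leading genes by fold included H2-Aa, H2-Eb1, H2-Ab1 and ribosomal pseudogenes.

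Without the 64 cells no member was called in either region. In all, 2 genes were then called in the motor cortex and 0 in the striatum. H2-Ab1 and H2-Eb1 were still lower on the contralateral side in 4 of 4 motor cortex pools. H2-Ab1 then changed by -0.72 and H2-Eb1 by -1.08 (adjusted p = 0.999 for both) in the motor cortex, and H2-Ab1 by -0.08 (adjusted p = 1) in the striatum. Cd74 changed by -0.08 (adjusted p = 0.999) and -0.31 (adjusted p = 1), and H2-Aa fell below the filter on low counts in both regions. Since that fit removes cells by the genes it measures, the class defined by P2ry12 and Tmem119 within the immune clusters was fitted as well. There H2-Ab1 changed by -1.07 in the motor cortex (adjusted p = 0.412) and -0.51 in the striatum (adjusted p = 1), H2-Aa and H2-Eb1 were too low to test and no member was called. The fits by markers called 2 genes in all in the motor cortex and 0 in the striatum. H2-Ab1 and H2-Eb1 were again lower contralaterally in 4 of 4 motor cortex pools, as were H2-Eb1 and Cd74 in 4 of 4 striatal pools. Striatal H2-Eb1 counts were low, with 3, 0, 0 and 1 contralateral UMIs in early pools 1 and 2 and late pools 1 and 2. The ipsilateral libraries held 5, 3, 18 and 2 in the same order. The share of all genes lower in 4 of 4 pools is not given, so these counts of pools, here and above, are descriptions. DESeq2 also called none of the 4 genes in either region, with 1 gene called in all in the motor cortex and 0 in the striatum. Leaving out early pool 1 or late pool 1 ended all 3 calls in the motor cortex, where H2-Ab1 then changed by -1.33 or -1.64 (adjusted p = 0.169 or 0.056) and H2-Aa and H2-Eb1 could not be tested. Leaving out early pool 2 or late pool 1 ended all 4 in the striatum, where H2-Ab1 then changed by -0.90 or -1.05 and Cd74 by -0.53 or -0.58 (adjusted p = 1 for each). A test of whether the change differed between regions called none of the 4 genes (Cd74 -0.32 ± 0.17, unadjusted p = 0.0605).

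**Figure D3:**
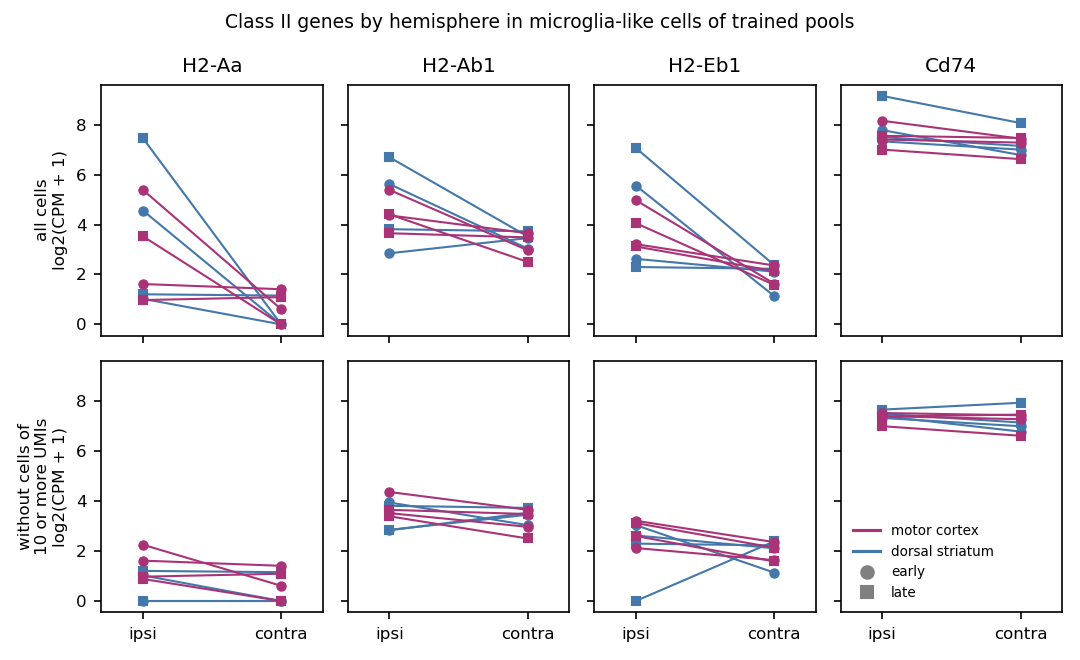
Levels of the 4 genes in microglia-like cells, log2(CPM + 1) on the vertical axis, in the ipsilateral (ipsi) and contralateral (contra) library of each trained pool, joined by a line. In the upper row H2-Aa reaches 175 CPM in 1 ipsilateral striatal library, and in the lower row, without the cells of 10 or more summed UMIs, no H2-Aa value is above 3.77 CPM.

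In macrophage-like cells, with all pools and the filter on low counts, 1 member was called, Cd74 in the striatum late against control. It stood at 1223 and 770 CPM in the control pools, 202 and 70.3 in the early pools and 76.1 and 41.8 in the late pools, and neither trained stage overlapped the controls. Late against control, the log2 change was -4.04 ± 0.42 (SE, adjusted p = 0.00393), and Cd74 was the only gene called, 0.0631% of 1586. Cd74 reached the level of the low-count filter in both control pools and 1 early pool and in no late pool, so fits that do not depend on this filter are given beside it. With no filter the change was -3.88 by edgeR, where Cd74 was among 15 genes called, and -4.00 by DESeq2 (adjusted p = 0.000631). Early against control it was -2.43 ± 0.42 (adjusted p = 0.0774), where 1 other gene, also 0.0631%, was called. Leaving out a pool leaves a stage with 1 pool, which the fit assumes to vary like the other groups. No such test is given for early against control. Late against early the change of Cd74 was -1.60 ± 0.58 (adjusted p = 0.521), where 0.189% of genes were called. Within the batch that the labels give to late pool 1 and control pool 1, the values were 76.1 and 1223, and within that of early pool 1 and control pool 2 they were 202 and 770.

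The level was carried by few cells here too. The 59 macrophage-like cells of the 2 striatal control pools included 6 with 10 or more summed UMIs, holding 138 of their 142 Cd74 UMIs. Without those cells the control pools stood at 56.7 and 12.1 CPM and the late pools at 76.1 and 41.8, and Cd74 no longer passed the filter on low counts. Without late pool 1 the change was -4.10 with an adjusted p of 0.18. H2-Aa, H2-Ab1 and H2-Eb1 were under the filter in this class, and in the striatal controls they held 26, 30 and 26 UMIs against 2 UMIs of any of them in the trained pools. With some pools left out they passed it, through the control pools where they are high, so no fit of them is given. The class was also set by Mrc1 and Pf4 within the immune clusters, in place of the named class. Early pool 1 then included a cell with many UMIs that clustering had left in an unnamed cluster, and its contralateral library held 12 UMIs of H2-Aa, 18 of H2-Ab1 and 36 of H2-Eb1. By this rule Cd74 stood at 681 CPM or more in the controls, 641 and 60.1 in the early pools and 83.8 and 39.1 in the late pools. The late-against-control change was -3.84 ± 0.68 (SE, adjusted p = 0.0424).

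**Figure D4:**
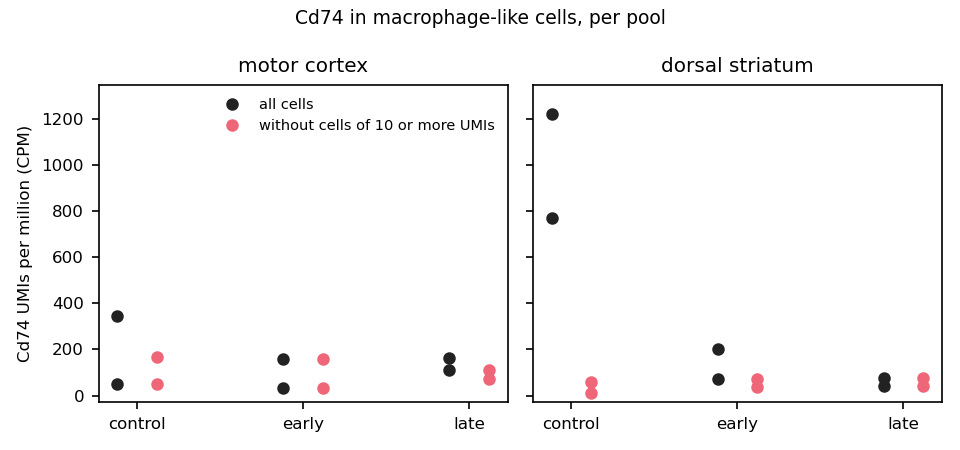
Cd74 CPM (vertical axis, linear) in macrophage-like cells, 1 point a pool, by stage and region, for all cells and without the cells of 10 or more summed UMIs. The 2 striatal control pools at 770 and 1223 fall to 12.1 and 56.7 without those cells.

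In the motor cortex, Cd74 in macrophage-like cells stood at 48.4 and 344 CPM in the controls, 33.3 and 157 in the early pools and 112 and 164 in the late pools. Pools of each stage overlapped, the log2 change late against control was -0.05 ± 0.60 (SE, adjusted p = 0.999), and 0% of 2935 genes were called, with 85 under an unadjusted p of 0.05. DESeq2 called no member in this comparison. The difference between the regions' late-against-control changes was -3.71 ± 1.01 on the log2 scale (adjusted p = 0.73), so the 2 regions were not shown to differ. Early against control the motor cortex change was -1.63 ± 0.66 (adjusted p = 0.983). With control pool 1, early pool 2, late pool 1 or late pool 2 left out it ran from -1.99 to -2.96, and without control pool 2 it was 0.19. In control pool 2, 1 cell held 33 of the 63 Cd74 UMIs. Late against early the change was 1.58 ± 0.71 (adjusted p = 0.997), and 2.87 and 3.26 without early pool 2 or late pool 2. Leaving out a pool leaves a stage with 1 pool, so these fits are given without a test. Between hemispheres Cd74 changed by -0.21 ± 0.47 in the motor cortex (adjusted p = 0.999, 0% of 2214 genes called), and no member could be tested in the striatum.

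Between the regions, striatum against motor cortex, Cd74 differed by 0.36 ± 0.24 on the log2 scale in microglia-like cells (SE, adjusted p = 0.711, 12 pools) and by 1.02 ± 0.49 in macrophage-like cells (adjusted p = 0.36). H2-Ab1 differed by 0.35 ± 0.34, H2-Eb1 by 0.61 ± 0.51 and H2-Aa by 0.73 ± 0.84 in microglia-like cells, and none was called, against 1.05% of 9831 genes.

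The partners of class II presentation were followed through lists of related genes. The 64 cells are a mix of classes, 13 of them microglia-like, and are set beside the microglia-like cells outside the 64. The shares therefore do not compare microglia-like cells of high and low level. Ciita, the activator of class II transcription, was found in 6 of the 64 cells (9.38%) and in 0.0973% of the other microglia-like cells. H2-DMa and H2-DMb1, which form the catalyst that removes the Cd74 fragment from the groove, were in 59.4% and 35.9% of the 64 cells against 22.1% and 14.5% of the other microglia-like cells. H2-DMb2, an alternative beta chain of that catalyst, was in 26.6% against 0.674%. H2-Oa and H2-Ob, the chains of its modulator, were in 14.1% and 25.0% against 7.69% and 3.45%. H2-Ea-ps, the alpha chain partner of H2-Eb1 that is annotated as a pseudogene in the reference strain, was at 0 in all cells of these groups and in neurons. The 64 cells were chosen by the level of the 4 genes, so these shares describe them and carry no test.

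Of the 9 genes of lysosomal processing, 7 were in a smaller share of the 64 cells. Ctss, the protease that trims the invariant chain, was in 65.6% of the 64 cells against 98.7% of the other microglia-like cells, Ctsd in 37.5% against 99.4% and Lgmn in 51.6% against 94.9%. Ifi30, a lysosomal thiol reductase, had the opposite order, 35.9% against 22.4%. A larger share of the 64 cells than of the other microglia-like cells carried 9 of 14 regulators and chaperones, 4 of 5 costimulation genes, 10 of 11 class I genes and 3 of 10 genes of the interferon-gamma response list. Over the 24386 genes detected in either group it was 33.4%, and over the 9009 genes in 1% or more of the other microglia-like cells 54.7%.

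**Figure D5:**
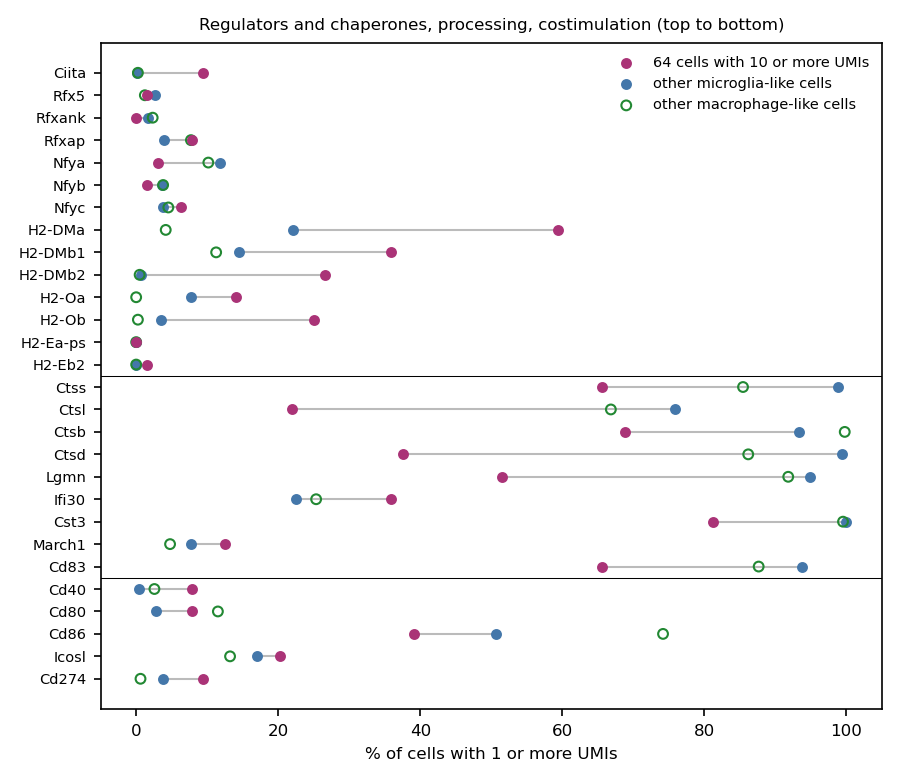
Percent of cells with 1 or more UMIs (horizontal axis) of each listed regulator, chaperone, processing and costimulation gene in the 64 cells with 10 or more summed UMIs and in the other microglia-like and macrophage-like cells. H2-DMa reaches 59.4% in the 64 cells against 22.1% in microglia-like cells, and Ctsd has the opposite order, 37.5% against 99.4%.

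In the tests between stages, hemispheres and regions, none of the listed class II regulators, processing, costimulation or class I genes that could be tested was called. In microglia-like cells of the striatum, late against control, 10 of 14 regulators and chaperones were tested, with 6 higher and a median log2 change of 0.28, beside a median of -0.01 over all genes tested. For the 9 processing genes the median was 0.23, with 8 higher. None of these genes was called, and a rise of H2-Aa and H2-Eb1 in this comparison was known beforehand. Such counts for other comparisons and the share of all genes higher are not given, so no change of either list is read from them. Of the interferon-gamma response list 1 gene was called in striatal microglia-like cells late against control, and it was the only one of the 9490 genes tested (0.0105%). This gene, Ccl5, a chemokine, stood at 37.8 and 51.8 CPM in the control pools, 57.2 and 55.5 in the early pools and 194 and 223 in the late pools, with the late pools above the other striatal pools. In the motor cortex early pool 2 reached 811 CPM and the other pools 40.5 to 64.6. Its log2 change was 2.28 ± 0.24 late against control (SE, adjusted p = 0.000275) and 2.16 ± 0.25 late against early (adjusted p = 0.000991), where 0.0316% of genes were called. In macrophage-like cells Cxcl10, another chemokine of that list, was lower in the striatum than in the motor cortex, by -2.58 ± 0.28 (adjusted p = 4.75e-06), where 3.24% of 2439 genes were called.

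Over the 66 clusters of both regions, the genes whose level followed the mean of the 4 members most closely, of 23041 compared, were Scimp (Pearson r of log2(CPM + 1) 0.945), Gpr132 (0.945), Ly9 (0.930), Clec7a (0.928), Clec2i (0.918), Itgax (0.917), Cd69 (0.917) and Cd300ld (0.916). Scimp encodes an adaptor found in antigen-presenting cells, Itgax an integrin of dendritic cells and Clec7a a receptor for fungal glucans. The clusters share libraries and depth, and the immune clusters dominate the range, so the likeness is a description. Several of these genes were rare, with 53 UMIs of Clec2i, 99 of Itgax and 157 of Scimp in all cells. Of the 64 cells 18 held Clec7a, 16 Gpr132, 10 Clec2i, 7 Itgax, 5 Cd69, 4 Ly9, 3 Scimp and 3 Cd300ld.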

How the data were processed

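The deposited matrices hold raw UMI counts per gene and barcode, made by the authors with Cell Ranger 3.1.0 on GRCm38 (mm10), per the submitters' processing notes. The members and gene lists were chosen with earlier results of these data known. Cells with at least 500 genes and 1000 UMIs and at most 20% mitochondrial UMIs were kept. In each library the highest Scrublet scores were removed as doublets (0.8% per 1000 barcodes). Cells were clustered per region with scanpy 1.11.5 (2000 variable genes, 40 components, 20 neighbours, Leiden resolution 1.5), and immune clusters of both regions again together (resolution 1), each time without the 4 genes. Naming rules were adjusted after the clusters had been seen. A cluster was named from detected markers, and stayed unnamed when another class scored close to it or led it. Some marker genes are not reported here.

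UMIs were summed per pool, or per library for hemispheres, with at least 10 cells each. edgeR 4.0.16 (TMM, filterByExpr, quasi-likelihood F test, Benjamini-Hochberg over all genes tested) was the main test, and DESeq2 1.42.0 an alternative. Standard errors were derived from the fitted change and its F statistic. The test of a difference between regions, the fits without the 64 cells and those with a batch block were added after the data had been seen. Scripts were tested on simulated counts. Nothing in the labels says that the 2 pools of a group came from separate litters or days, so p-values measure the spread between these pools. By rule, the 4 members, listed pathway genes that were called and the 8 genes most like the members over clusters were named. Other pathway genes named for their shares in cells were picked from the lists after their values had been seen. Wilson 95% intervals cover counting error only.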

Additional observations from a re-analysis of the deposited data

Results flagged for a closer look

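Of 54 groups of 4 or 6 samples checked for a value far from the rest, 13 had one. The rule is set to a chance rate of about 1 in 20, which need not hold for counts near 0. There 1 UMI beside libraries with 0 is flagged, and the groups share cells, so the 13 are not read as an excess. In microglia-like cells of the motor cortex, early pool 1 had 23.1 CPM of H2-Aa, with the next pool at 6.47. In microglia-like cells of the striatum, late pool 1 had 45.3, with the next at 12.2. Its ipsilateral library stood at 175 CPM of H2-Aa and 569 of Cd74 among the 4 ipsilateral striatal libraries, with the next at 22.6 and 219. In the contralateral striatal libraries, late pool 2 had 1.23 CPM of H2-Aa and the other 3 had none, a difference of 1 UMI.

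In macrophage-like cells of the striatum, control pool 1 stood apart with 335 CPM of H2-Aa, 335 of H2-Ab1 and 369 of H2-Eb1, with the next pools at 67.0, 112 and 44.6. In the motor cortex, control pool 2 had 87.4 CPM of H2-Aa in this class, with the next at 27.4. Among the 4 contralateral motor cortex libraries late pool 2 had 31.3 CPM of H2-Ab1 (3 UMIs) and the others 0. Among the ipsilateral ones late pool 2 had 107 of H2-Eb1, with the next at 11.2. In the striatum, late pool 1 had 20.0 CPM of H2-Aa in the ipsilateral library (1 UMI) and 23.9 of H2-Ab1 in the contralateral library (1 UMI), with 0 in the others.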

How the results depend on the processing

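Across alternatives the 4 genes' calls were few and moved with the choice of cells. Between hemispheres in microglia-like cells, the motor cortex had 3 members called, 0 with DESeq2, the marker rule, the stricter cell filter or without cells of 10 or more summed UMIs, and 1 with doublets kept. The striatum had 4, and 0 with DESeq2, the marker rule, the stricter filter or without those cells. Over all genes the motor cortex fits called 6, 1, 2, 2, 2 and 5 in the order named. The striatal fits called 4, 0, 0, 1 and 0. DESeq2 tested all 4 members, but the marker rule tested 2, the stricter filter 1 and the fits without those cells 3 (motor cortex) and 2 (striatum), so these counts of 0 are in part set by the filter on low counts. Leaving out 1 pool gave 0 to 3 and 0 to 4. With no filter on low counts, 1 member was called in motor cortex microglia-like cells early less control and 1 late less early. It was 2 and 4 in striatal macrophage-like cells (early and late against control) and 1 between regions in macrophage-like cells. Over all genes these fits called 30, 19, 11, 15 and 188 in the same order. The stricter cell filter gave 1 in motor cortex macrophage-like cells, early less control and late less early, among 3 and 6 genes called. Leaving out 1 pool gave 0 to 1 in the region comparison. In stage comparisons it leaves a stage with 1 pool, so the calls of those fits are not counted here.

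Signs turned in uncalled log2 changes. Without cells of 10 or more summed UMIs, H2-Eb1 in motor cortex microglia-like cells was -0.14 (early against control) and 0.66 (late less early), H2-Ab1 was -0.09 (late less control), striatal H2-Ab1 was -0.38 (early against control), and between regions H2-Eb1 was -0.12 and macrophage-like Cd74 -0.98. By the marker rule, motor cortex H2-Ab1 was -0.22 late against control, and striatal H2-Aa and H2-Ab1 were -3.44 and -0.53 early against control. The stricter filter gave -0.43 for motor cortex H2-Ab1, and no kit covariate gave 0.59 for striatal H2-Eb1 late against early. Macrophage-like Cd74 in the motor cortex, by the marker rule, was 0.89 early less control, 0.34 late less control and -0.54 late less early. The late less control change was 0.01 with no filter, 0.11 with DESeq2, 0.02 with the stricter filter, 0.22 with doublets kept and 0.05 without the cells of many UMIs. With 1 pool left out, 37 log2 changes turned sign and 207 kept sign and call. In microglia-like cells of the motor cortex, H2-Eb1 then ran from -0.04 to 2.88 and Cd74 from -0.70 to 0.90 (late less control), and from -1.19 to 1.72 and -0.89 to 0.71 (late less early). In the striatum, early less control, H2-Aa ran from -2.44 to 7.54, H2-Ab1 from -0.73 to 2.79, H2-Eb1 from -0.10 to 5.48 and Cd74 from -0.60 to 0.76. Late less control these were -2.24 to 5.49, -0.36 to 2.37, -0.91 to 3.70 and -0.42 to 0.94, and late less early H2-Aa ran from -2.08 to 5.66, H2-Ab1 from -0.58 to 2.30 and H2-Eb1 from -1.79 to 2.81. H2-Aa between regions ran from -0.36 to 2.40. Macrophage-like Cd74 in the motor cortex ran from -2.96 to 0.19 (early less control), -0.95 to 1.26 (late less control) and -1.13 to 0.31 (hemispheres).

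The share of microglia-like cells with a member, 23.4% in the motor cortex and 21.9% in the striatum, was 7.42% and 7.59% at 2 or more UMIs, 0.983% and 0.949% with 2 different members, 14.1% and 13.2% after thinning and 29.8% and 28.9% under the stricter filter. In macrophage-like cells it was 5.15% (motor cortex, 2 or more UMIs), 0.858% and 2.46% with 2 members and 8.75% after thinning in the motor cortex. In neurons it was 0.0228% and 0.00828% at 2 UMIs, 0.00912% and 0.00414% with 2 members and 0.119% and 0.087% after thinning. Of carriers, 73.1% were microglia-marked at 1 marker UMI and 52.5% at 3, 3.87% and 0.0726% had both pairs and 19.9% and 44.4% neither, and 4.69% of the 64 had both at 1 UMI. The cause of these movements was not tested.

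Hemisphere fits carry the pool as a block. For stages the replicate numbers pair nothing, but the labels give batches that tie late pool 1 to control pool 1 and early pool 1 to control pool 2 in each region. Within 1 region a batch block leaves no residual degrees of freedom. It was therefore fitted, after the data had been seen, over 12 pools with stage changes shared by the regions (3 residual degrees of freedom), where no member was called with or without this replicate block. In microglia-like cells signs turned for Cd74 early less control (from 0.16 to -0.23) and, late less early, for H2-Aa (from -1.55 to 3.23), H2-Ab1 (from -0.49 to 0.66) and H2-Eb1 (from -0.66 to 2.79). Late less control, the block raised the changes of all 4 genes. H2-Aa went from 1.55 to 4.69, H2-Ab1 from 0.49 to 1.04, H2-Eb1 from 1.13 to 3.37 and Cd74 from 0.16 to 0.90. The edgeR adjusted p-values with the block were 0.429, 0.734, 0.220 and 0.313. The block fit called 33 of 10309 genes late less early and 0 in early less control and late less control. The stricter cell filter gave no value for striatal stages, regions or macrophage-like hemispheres, and striatal macrophage-like hemispheres tested no member. With every cell thinned to 1000 UMIs, H2-Ab1 was in 1.07% and 0.928% of microglia-like cells (motor cortex, striatum), against 1.86% and 1.92% at full depth.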
